A study of Mus musculus with 30 samples.

Results

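The genes described here are 39 genes of DNA replication and mitosis, followed through a retinoic acid (RA) time course in KH2 mouse embryonic stem (ES) cells. They were chosen by name, as 14 genes of S phase and its onset and 25 genes of mitosis, out of 18193 genes measured. A gene was measured where a probe set of the array carried its symbol and no other, and the probe set with the highest mean over the 30 arrays stood for the gene. This gave 38 of the 39 genes, all 14 S phase genes and 24 mitotic genes. Ccnb1, cyclin B1, had no probe set that carried its symbol alone in the annotation used and has no value here.

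Dividing cells copy their DNA in S phase and share it out in mitosis. Before S phase the loading factors Cdc6 and Cdt1 place the MCM helicase (Mcm2 to Mcm7) on replication origins, and E2F transcription factors, cyclin E and the genes they act on bring cells into S phase. Later, cyclins A and B with the kinase Cdk1, and the polo and aurora kinases, drive the cell into mitosis, where kinesins build the spindle and the checkpoint holds back chromosome separation until every chromosome is attached. ES cells have a short G1 phase, so that most cells of a culture are in S, G2 or M, and differentiation lengthens G1. S phase genes are known targets of E2F, while many mitotic genes are controlled by the DREAM and MYB-MuvB complexes through a promoter element called the CHR, often with CCAAT boxes bound by NF-Y.

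RNA from the cells was hybridised to 1 array per sample. Cells taken at 12 h and at 24 h gave 6 arrays per time, lettered A to F, and those taken at 8 h, 16 h, 36 h, 48 h, 60 h or 72 h gave 3 per time. Per the labels, the 8 h arrays are a baseline and all later ones retinoic acid, RA was used at 0.3 uM, and the presence of RA at 8 h is not given. The groups share 1 cell line, KH2, whose genotype the labels do not describe. All cells were grown on feeder fibroblasts and briefly replated on gelatin before lysis, which the labels describe in more than 1 way, so feeder RNA may be in every sample. The labels do not say that arrays of a time came from separate cultures, so p-values reflect the spread among the arrays, which may be technical, and their number limits how precise a value can be.

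The arrays fell into 2 sets by their hybridisation controls. The difference between the BioDn 5' and BioC 5' spike-in signals was 0.99 to 1.07 log2 on 12 arrays (8 h, 16 h and letters A to C of 12 h and 24 h, here set 1) and 1.34 to 1.63 on 18 arrays (letters D to F of 12 h and 24 h and all arrays from 36 h on, here set 2). The labels give no date or batch. Comparisons were therefore kept within a set, with 24 h arrays A to C against 8 h in set 1 and 72 h against 12 h arrays D to F in set 2 as the main ones, and 72 h against 8 h, which spans the sets, was given beside them. Values are log2 intensities as deposited. Changes are differences of group means, with standard errors (SE) from a limma fit over all genes. A change was called higher or lower where the Benjamini-Hochberg adjusted p over all genes was under 0.05.

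To show what the 2 classes carry at their promoters, all 32851 annotated mouse promoter windows were searched, each from 250 bases before to 50 bases after a gene's start, on both strands. Windows were found for 33 of the 39 genes, and Mcm7 and Prc1 have 2 each. The E2F words were TTTCCCGC, TTTCGCGC, TTTGCCGC and TTTGGCGC, which can overlap on opposite strands, the CHR was TTTGAA, and the CCAAT box was CCAAT. An E2F word lay in windows of 6 of 12 S phase genes (Mcm3, Mcm5, Mcm6, Mcm7, Cdc6 and Cdt1) and of 1 of 21 mitotic genes (Cdk1), against 2.26% of all windows. The CHR lay in windows of 15 of 21 mitotic genes and of 1 of 12 S phase genes (Mcm2), against 17.9% of all windows. The CCAAT box was in 17 mitotic and 8 S phase genes, against 37.4% of all windows, and CHR and CCAAT box together in 14 mitotic genes and 1 S phase gene, against 6.95% of all windows. A match is a description of these letters and not a shown binding site, and a gene without a match may use other letters or other positions.

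The promoters of 5 genes show the 2 patterns and the gene that holds both, each from 180 bases before to 20 bases after the RefSeq start, mouse build GRCm38.p6, written 5′ to 3′ on the gene's strand, with matches in capitals. CCAAT boxes are left in lower case. Mcm6 and Cdc6 hold E2F words and no CHR. In Mcm6 a pair of words on opposite strands overlap and a further one lies nearer the start.
Mcm6, chr1:128359686-128359885, minus strand: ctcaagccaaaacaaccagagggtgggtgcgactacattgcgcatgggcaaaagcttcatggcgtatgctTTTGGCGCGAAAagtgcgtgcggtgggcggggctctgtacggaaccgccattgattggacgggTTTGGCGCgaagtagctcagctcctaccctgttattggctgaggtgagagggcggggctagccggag
Cdc6, chr11:98907971-98908170, plus strand: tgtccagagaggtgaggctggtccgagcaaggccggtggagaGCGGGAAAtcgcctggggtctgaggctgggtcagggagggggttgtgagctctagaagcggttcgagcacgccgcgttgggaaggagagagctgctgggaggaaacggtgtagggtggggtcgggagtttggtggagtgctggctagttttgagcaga
Cdk1 holds 1 E2F word, the first run of capitals, and 2 CHR words after it.
Cdk1, chr10:69352893-69353092, minus strand: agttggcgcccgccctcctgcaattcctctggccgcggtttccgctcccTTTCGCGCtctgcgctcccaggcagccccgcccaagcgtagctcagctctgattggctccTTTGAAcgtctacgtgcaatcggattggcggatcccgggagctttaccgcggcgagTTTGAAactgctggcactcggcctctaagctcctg
Ccnb2 and Ttk hold CHR words and no E2F word. The word of Ttk reads on the opposite strand.
Ccnb2, chr9:70421535-70421734, minus strand: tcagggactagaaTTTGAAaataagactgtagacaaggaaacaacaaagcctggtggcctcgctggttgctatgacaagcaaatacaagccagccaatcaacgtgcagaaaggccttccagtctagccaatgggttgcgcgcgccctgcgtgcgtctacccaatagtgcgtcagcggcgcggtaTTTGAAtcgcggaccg
Ttk, chr9:83834509-83834708, plus strand: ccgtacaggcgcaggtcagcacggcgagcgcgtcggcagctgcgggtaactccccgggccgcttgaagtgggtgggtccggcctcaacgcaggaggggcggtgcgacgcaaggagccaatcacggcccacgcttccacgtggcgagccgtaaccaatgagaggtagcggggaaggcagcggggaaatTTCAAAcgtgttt

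**Figure D1:**
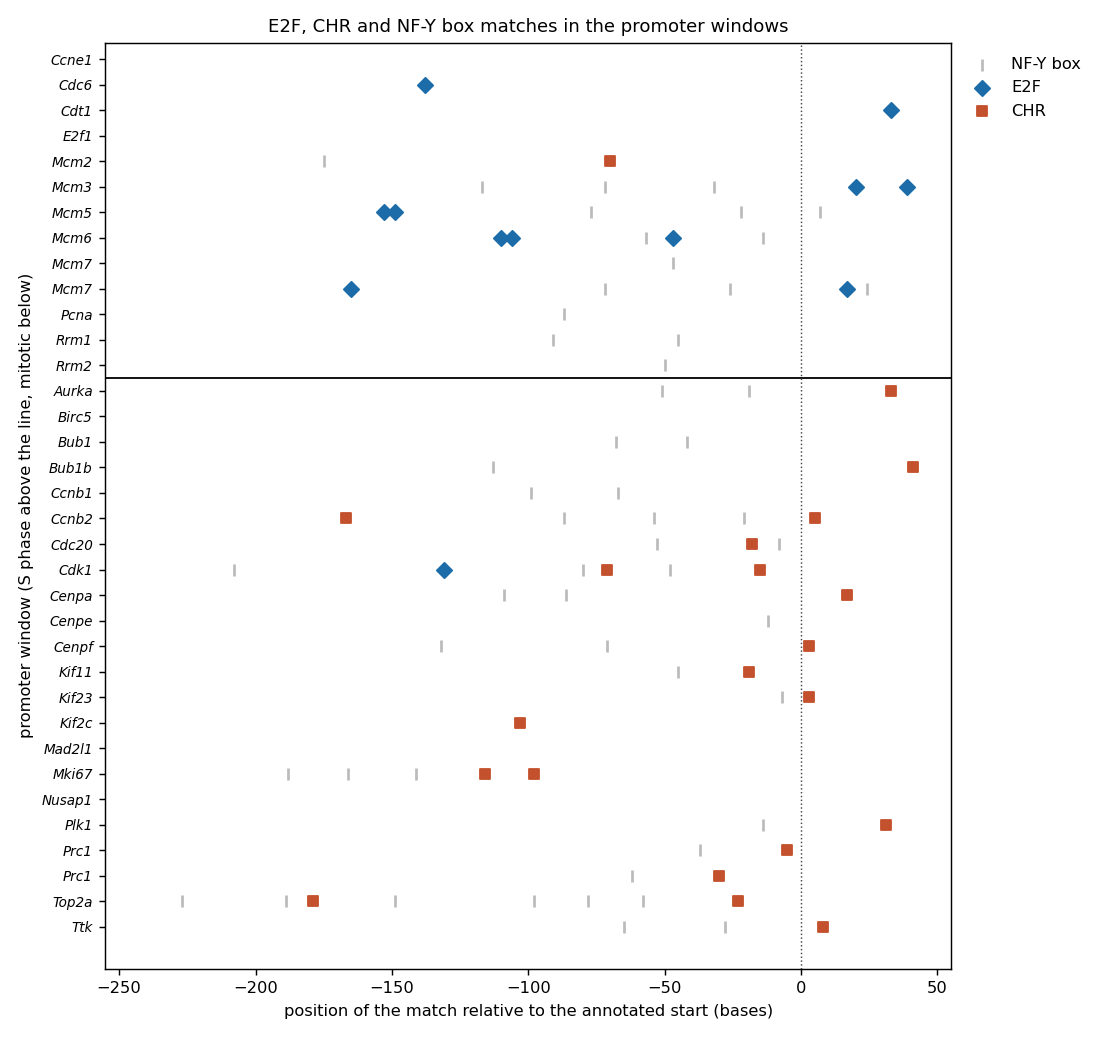
Matches of the E2F words, the CHR and the NF-Y (CCAAT) box in the promoter windows of the 33 genes, by position of the first base of the match relative to the annotated start (x axis, bases). Each row is 1 window, with S phase genes above the line and mitotic genes below it. E2F diamonds lie in 6 S phase genes and in Cdk1, and CHR squares in 15 mitotic genes and in Mcm2.

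All members were well expressed on their probe sets. The lowest group mean of any member was 7.90 log2, above the array medians of 6.34 to 6.39, so all 38 passed any filter on low values that was tried. Their levels moved little. The span between a gene's highest and lowest group mean had a median of 0.55 log2 over the S phase genes and 0.54 over the mitotic genes, against 0.57 over all genes. Only Ccne2 (1.37) and Ttk (1.13) spanned 1 log2 or more, 2 of 38, against 22.6% of all genes. These spans were taken over the groups of both array sets, so they hold differences between sets as well as between times. Ccne2 was highest at 12 h arrays D to F and lowest at 16 h. Ttk was highest at 16 h and lowest at 72 h.

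**Figure D2:**
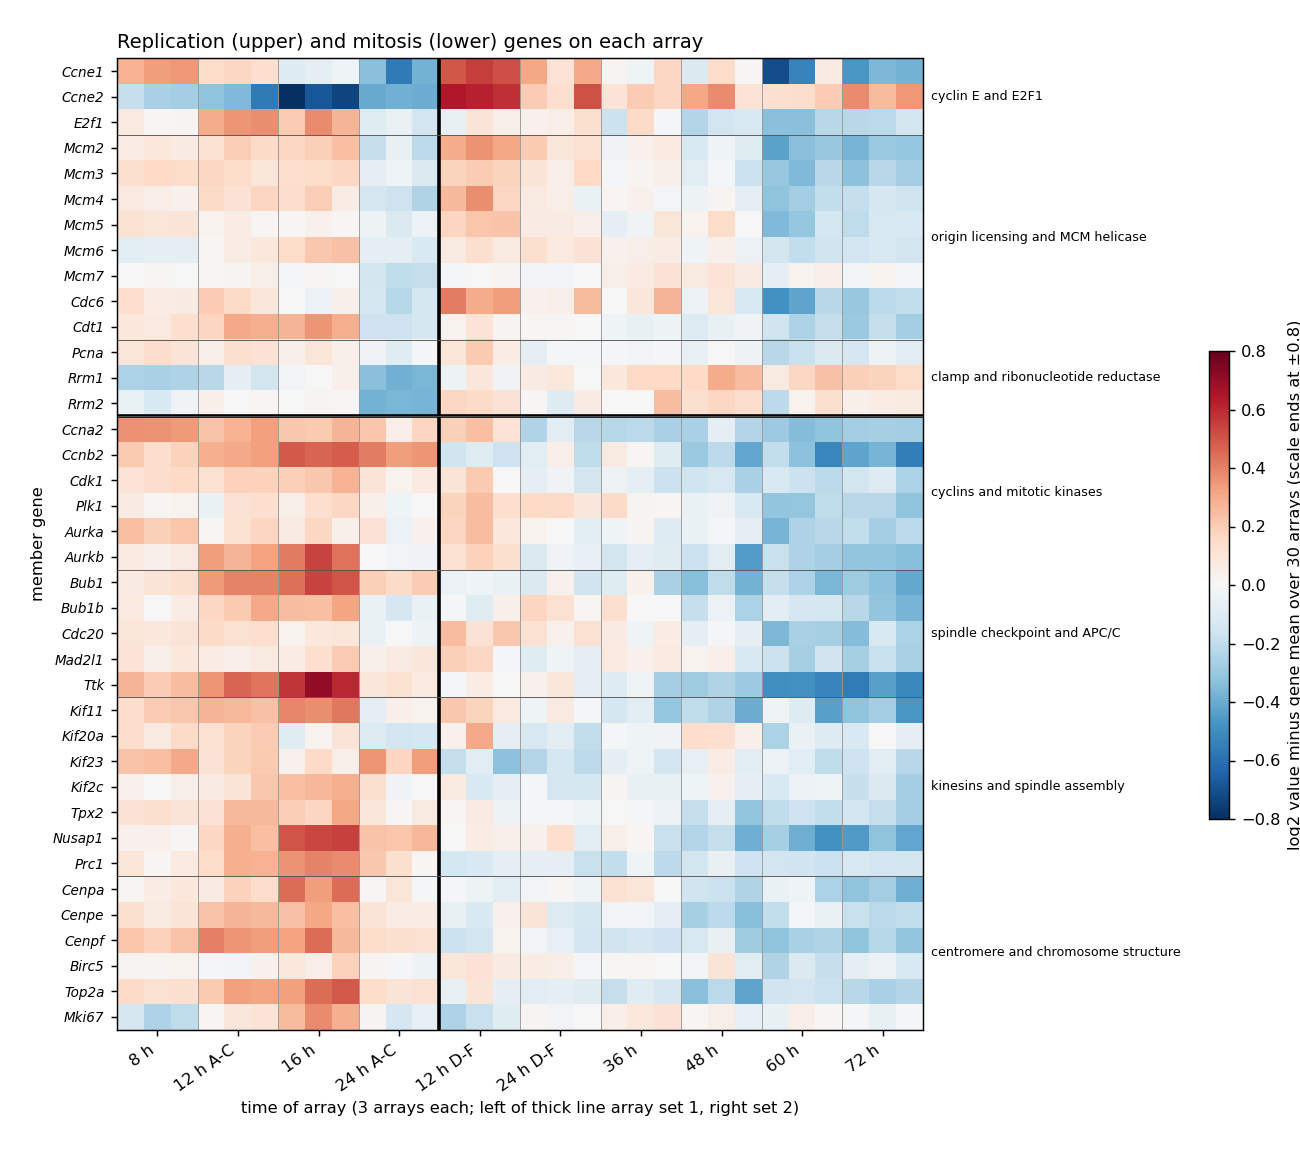
Log2 value of each of the 38 measured genes on each array, minus the gene's mean over 30 arrays (colour, ends of the scale at ±0.8). Rows are genes by role and columns are arrays by time, set 1 left and set 2 right of the thick line. Most mitotic genes are red at 16 h in set 1 and blue at 60 h and 72 h. S phase genes are blue at 24 h A to C in set 1. In set 2 the licensing and MCM genes other than Mcm7 are blue at 60 h and 72 h, while Mcm7, Rrm1, Rrm2 and Ccne2 mostly are not.

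Within set 1 the mitotic genes had their highest group mean at 16 h in 18 of 24 cases, against 28.5% of all genes. The S phase genes were spread, with 4 highest at 8 h, 5 at 12 h, 5 at 16 h and 0 at 24 h. At 24 h arrays A to C, 13 of 14 S phase genes and 16 of 24 mitotic genes had their lowest mean of the 4 groups, against 31.3% of all genes, the S phase exception being Ccne2. As a median deviation from each gene's own mean, the mitotic genes stood at 0.10 ± 0.02 at 8 h, 0.21 ± 0.05 at 12 h, 0.27 ± 0.02 at 16 h and 0.06 ± 0.03 at 24 h (SD, n = 3 arrays each). The S phase genes stood at 0.06 ± 0.01, 0.10 ± 0.02, 0.04 ± 0.02 and -0.16 ± 0.01 at the same times. The S phase median lay below the mitotic median on all 12 arrays of set 1, the difference being -0.05 to -0.02 at 8 h and -0.24 to -0.21 at 24 h. Each gene's mean was taken over the arrays of both sets. The sign of this difference therefore also reflects how the sets differ, and only its change over time stays within set 1. In these bulk samples fewer dividing cells and less RNA of a gene per cell cannot be told apart.

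**Figure D3:**
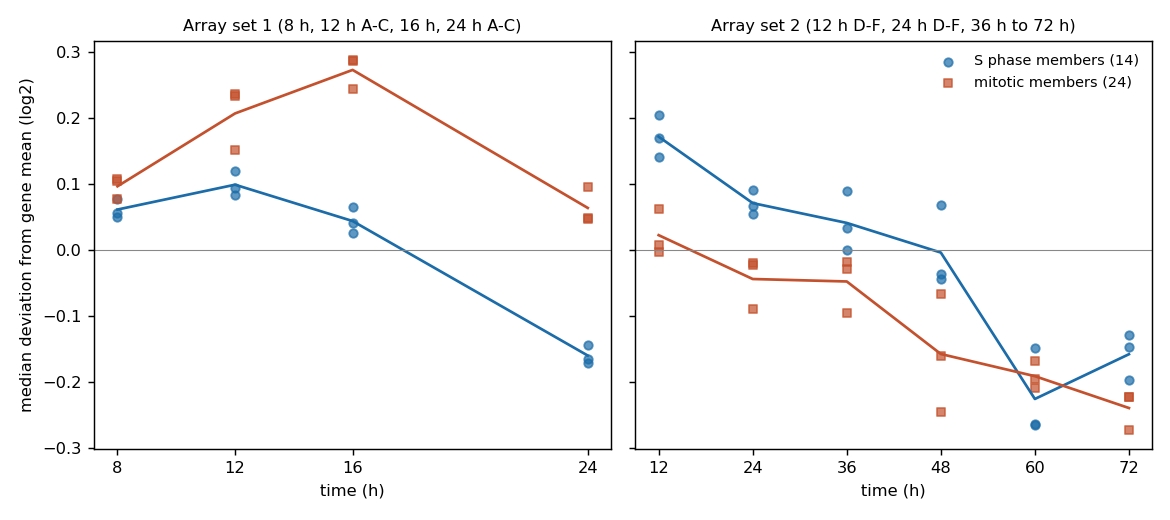
Median deviation of the S phase genes (circles) and mitotic genes (squares) from each gene's own mean over 30 arrays (y axis, log2) against time (x axis, h), 1 point per array and lines through group means, set 1 left and set 2 right. In set 1 the mitotic median is highest at 16 h (0.27) and the S phase median lowest at 24 h (-0.16). In set 2 the S phase median is lowest at 60 h (-0.23) and the mitotic median at 72 h (-0.24).

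Over the first steps few members were called. At 12 h arrays A to C against 8 h, 3 of 14 S phase genes (E2f1, Cdt1, Mcm6) and 7 of 24 mitotic genes (Bub1, Mki67, Aurkb, Nusap1, Bub1b, Ttk, Prc1) rose, against 12.9% of all genes, and 0 fell, against 6.67% (limma, 1 lower at unadjusted p under 0.05). When each array was centred on the median of all genes, 1 S phase and 2 mitotic genes were higher and 5 members lower, and the calls of Mcm6, Cdt1, Aurkb, Bub1b, Ttk, Nusap1 and Prc1 were lost. Centring also took the median of all genes from 0.007 to -0.09 log2, and 31.0% of called genes were higher, against 65.9% as deposited. E2f1, the activator E2F of S phase entry, was at 9.66, 9.71 and 9.73 log2 on the 12 h arrays A to C, against 9.43, 9.37 and 9.38 on the 8 h arrays (change 0.30 ± 0.07 SE, limma adjusted p = 0.002). At 16 h against 12 h A to C, 2 S phase genes (Mcm6, Rrm1) and 4 mitotic genes (Nusap1, Cenpa, Mki67, Ttk) were higher, against 12.4% of all genes, and Ccne2 was lower, against 9.50%. With arrays centred, Mcm6, Rrm1 and Ttk lost the call, and 3 mitotic genes were higher against 2 S phase and 4 mitotic genes lower. The median of all genes went from 0.004 to -0.09 log2 there, with 26.2% of called genes higher, against 56.6% as deposited. With arrays quantile normalised again, 2 S phase and 8 mitotic genes were higher, and 1 S phase and 0 mitotic genes lower. Fibroblast markers were higher for 2 of 23 at 12 h against 8 h, against 12.9% of all genes. At 16 h against 12 h 5 were higher, against 12.4%. In either step 0 were lower, and the part of these markers was not tested.

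Between 16 h and 24 h both classes fell. At 24 h arrays A to C against 16 h, 10 of 14 S phase genes and 15 of 24 mitotic genes were lower, against 16.9% of all genes, with medians of -0.30 and -0.20 log2 against -0.02 over all genes. These counts were the same with arrays centred. In this step 3 of 23 fibroblast markers were higher and 3 lower, against 17.4% of all genes higher and 16.9% lower. Of 10 ES cell markers 6 were lower and 1 higher. Ttk (Mps1), the kinase that starts the spindle checkpoint, fell most, to 11.52, 11.55 and 11.51 log2 at 24 h, against 12.00, 12.14 and 12.03 at 16 h (-0.53 ± 0.06, adjusted p = 1.1e-07). Aurkb, the aurora kinase of the chromosomal passenger complex, changed by -0.48 ± 0.06, and Cdt1, the origin licensing factor, by -0.46 ± 0.05. Ccne2 (0.36 ± 0.08), a cyclin E, and Kif23 (0.21 ± 0.06), a kinesin of the midbody, were the 2 called higher, against 17.4% of all genes.

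Over the whole of set 1, the S phase genes were lower and the mitotic genes split. At 24 h arrays A to C against 8 h, 10 of 14 S phase genes fell and 0 rose (limma, 0 higher at unadjusted p under 0.05), against 15.8% of all genes lower and 23.5% higher. Of the 24 mitotic genes 3 fell, 3 rose and 18 were not called. The median change was -0.20 log2 for the S phase genes and -0.03 for the mitotic genes, against -0.02 over all genes. Centring the arrays lowered every change, taking the median of all genes to -0.20 and the share of called genes that were higher to 21.7%, against 59.8% as deposited. With it 14 S phase and 20 mitotic genes were lower and 0 higher. Relative to the median of all genes, which this leaves as it was, the S phase median stood at -0.18 and the mitotic median at -0.02. The S phase minus mitotic difference of the median changes was -0.17 log2. The S phase minus mitotic median deviation of single arrays, a different measure, had a pooled SD of 0.05 between arrays of a group. When the D to F arrays of 24 h were pooled with A to C, 5 members were called and 2 S phase genes were lower.

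Markers of cell types were followed in the same comparison. Of 23 measured embryonic fibroblast markers, 6 were higher and 0 lower, against 23.5% of all genes higher and 15.8% lower. Their mean level over the list was 8.18 to 8.29 log2 at 24 h, against 7.69 to 7.89 at 8 h. Of 10 ES cell markers 8 were lower (11.93 to 12.05 at 24 h, against 12.54 to 12.62 at 8 h) and of 10 neuron markers 3 were lower (7.25 to 7.31 at 24 h, against 7.40 to 7.49 at 8 h). No fibroblast or ES cell marker had a group mean in any group under the lower quartile of the arrays, which was 4.73 or above, and the neuron marker Snap25 was under it in every group. The cells these marker changes came from, and their part in the members' changes, were not tested.

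Of the genes at the entry into S phase, Ccne1 fell most. Ccne1, cyclin E1, was at 11.55, 11.32 and 11.51 log2 on the 24 h arrays A to C, against 12.16, 12.22 and 12.23 on the 8 h arrays (-0.75 ± 0.12, adjusted p = 1.59e-05). All its 24 h arrays lay below all 8 h arrays. How often groups did not overlap over all genes was not counted, here or for the genes below. Ccne2 (-0.16 ± 0.08) and E2f1 (-0.14 ± 0.07) were not called.

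Of the licensing factors and the MCM helicase, 7 of 8 fell, by similar amounts, with changes of -0.18 to -0.26 log2, and Mcm6 (-0.01 ± 0.04) was not called. The Mcm6 value rests on its brightest probe set. Its other probe sets changed by -0.22 (mean level 11.89 log2) and by -0.13 (mean level 3.59). Cdc6 was at 10.90, 10.82 and 10.91 log2 at 24 h, against 11.18, 11.11 and 11.11 at 8 h (-0.26 ± 0.07, adjusted p = 0.00829). Mcm2 was at 12.05, 12.18 and 12.03 at 24 h, against 12.29, 12.32 and 12.30 at 8 h (-0.22 ± 0.05, adjusted p = 0.00095). In both genes the groups did not overlap.

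The sliding clamp Pcna and the small subunit of ribonucleotide reductase Rrm2, which makes the deoxynucleotides for replication, also fell. Rrm2 was at 12.69, 12.71 and 12.70 log2 at 24 h, against 13.02, 12.95 and 13.05 at 8 h (-0.30 ± 0.07, adjusted p = 0.000723). Pcna was at 13.99, 13.92 and 14.00 at 24 h, against 14.12, 14.16 and 14.12 at 8 h (-0.16 ± 0.05, adjusted p = 0.00692). The large subunit Rrm1 (-0.11 ± 0.05) was not called.

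The mitotic genes that fell were cyclin A2, the aurora kinase Aurka and the cytokinesis kinesin Kif20a. Ccna2 was at 12.28, 12.11 and 12.22 log2 at 24 h, against 12.41, 12.41 and 12.39 at 8 h (-0.20 ± 0.05, adjusted p = 0.00403). Kif20a was at 10.78, 10.73 and 10.75 at 24 h, against 11.03, 10.96 and 11.04 at 8 h (-0.26 ± 0.07, adjusted p = 0.00565). The spindle motor Kif11 (Eg5) was at 10.28, 10.39 and 10.38 at 24 h, against 10.49, 10.55 and 10.56 at 8 h, and missed the call (-0.19 ± 0.08, adjusted p = 0.0643), which it passed with arrays quantile normalised again (adjusted p = 0.0375). Cdk1, the kinase that drives entry into mitosis, was at 12.33, 12.26 and 12.31 at 24 h, against 12.34, 12.37 and 12.39 at 8 h (-0.07 ± 0.06, not called).

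The 3 mitotic genes called higher had small changes, and all 3 calls ended with arrays centred, which lowered every change. All 3 calls were kept with arrays quantile normalised again. Nusap1, a microtubule-binding spindle protein, was at 12.07, 12.06 and 12.11 log2 at 24 h, against 11.88, 11.88 and 11.85 at 8 h (0.21 ± 0.07, adjusted p = 0.0129, and 0.03 with arrays centred). Ccnb2, cyclin B2, was at 12.52, 12.45 and 12.47 at 24 h, against 12.32, 12.25 and 12.30 at 8 h (0.19 ± 0.07, adjusted p = 0.0393, and 0.01 with arrays centred), and leaving out any 1 of the 6 arrays ended the call at adjusted p of 0.0583 to 0.12. Mki67, the Ki-67 protein that coats mitotic chromosomes, was at 12.33, 12.17 and 12.24 at 24 h, against 12.17, 12.06 and 12.10 at 8 h (0.14 ± 0.05, adjusted p = 0.0429), with -0.05 when arrays were centred. The Mki67 call ended without 8 h array B or C or without 24 h array A or C, at adjusted p of 0.0762 to 0.208.

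**Figure D4:**
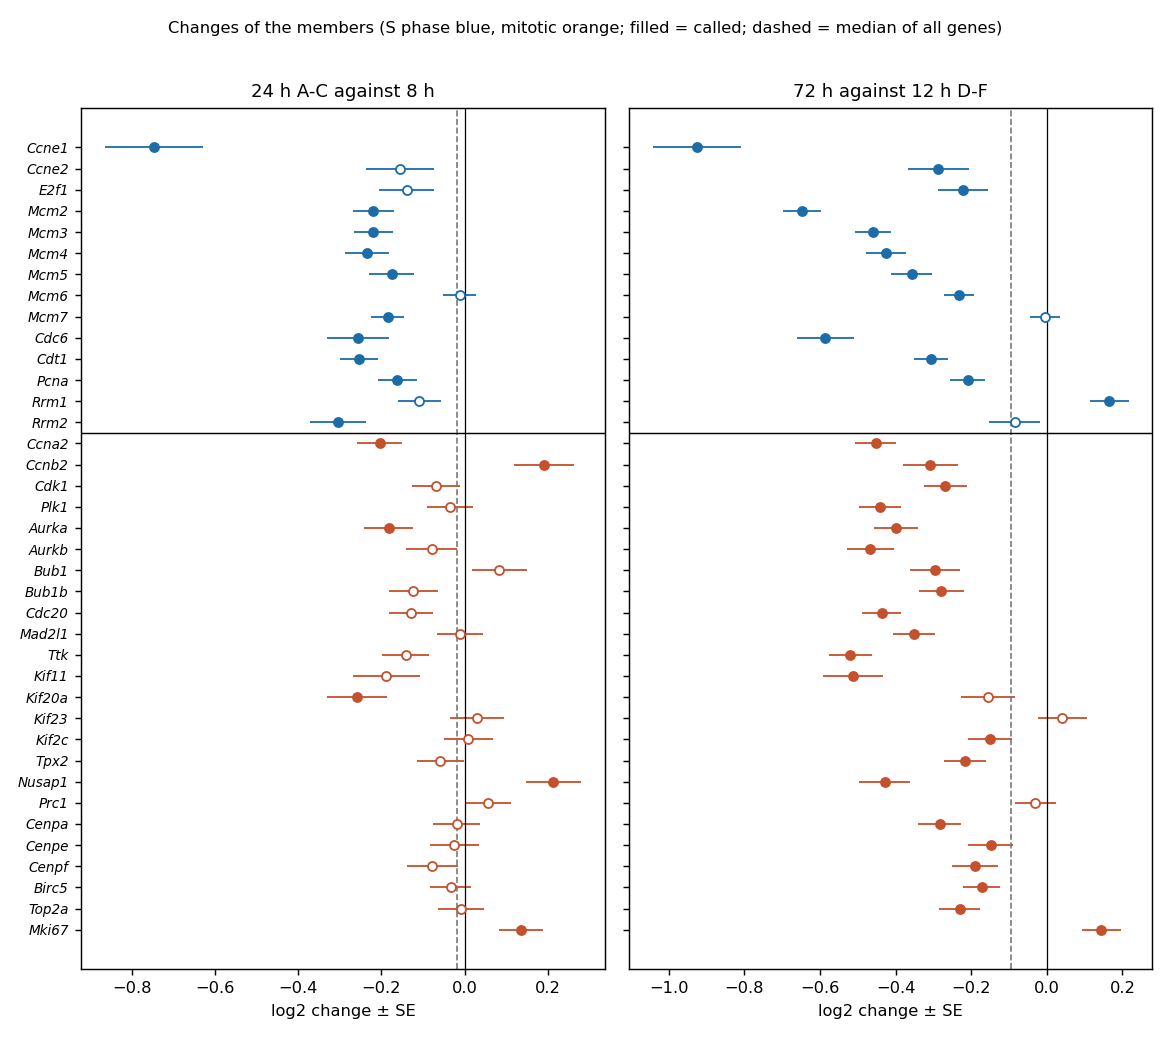
Log2 change ± SE of each measured gene at 24 h arrays A to C against 8 h (left) and at 72 h against 12 h arrays D to F (right), S phase genes in blue above the line and mitotic genes in orange below it. Filled points passed the test, and the dashed line marks the median of all genes (-0.02 left and -0.09 right). At left the S phase genes lie below 0 and the mitotic genes on both sides, with 0 higher when arrays are centred, and at right most genes of both classes lie below 0.

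In set 2 both classes fell. At 72 h against 12 h arrays D to F, 11 of 14 S phase genes and 20 of 24 mitotic genes were lower, against 34.5% of all genes, and Rrm1 and Mki67 were higher, against 26.2%. The medians were -0.30 and -0.28 log2, against -0.09 over all genes, which is -0.20 and -0.19 relative to that median. The median changes of the classes differed by -0.02. The S phase minus mitotic median deviation of single arrays was 0.15 ± 0.01 at 12 h arrays D to F. At 72 h it was 0.08 ± 0.05 (SD, n = 3 arrays each). With arrays centred, the median of all genes was -0.27, 25.5% of the called genes were higher against 43.2% as deposited, and 13 S phase and 22 mitotic genes were lower and 0 higher.

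In the same comparison 21 of 23 fibroblast markers were higher and 0 lower, against 26.2% of all genes higher and 34.5% lower. Their mean level was 9.89 to 10.72 log2 at 72 h, against 7.85 to 8.63 at 12 h. Of 10 ES cell markers 9 were lower (10.99 to 11.29 at 72 h, against 12.50 to 12.55 at 12 h), and of 10 neuron markers 7 were higher and 2 lower (7.93 to 8.03 at 72 h, against 7.38 to 7.49 at 12 h). The median change of the fibroblast markers was 2.15 log2. Whether this RNA came from feeder fibroblasts or from the RA-treated cells themselves, and its part in the members' changes, was not tested.

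Ccne1 again had the largest change, at 11.42, 11.52 and 11.50 log2 on the 72 h arrays, against 12.38, 12.43 and 12.40 on the 12 h arrays D to F (-0.93 ± 0.12, adjusted p = 2.25e-07). Mcm2 followed, at 11.87, 11.94 and 11.93 at 72 h, against 12.53, 12.59 and 12.55 at 12 h (-0.65 ± 0.05, adjusted p = 3.75e-11). Cdc6 was at 10.74, 10.83 and 10.85 at 72 h, against 11.45, 11.34 and 11.38 at 12 h (-0.59 ± 0.07, adjusted p = 2.6e-07). None of the 3 genes had overlapping groups.

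Over the other origin genes, 7 of 8 licensing and helicase genes were lower, and the exception was Mcm7 (-0.01 ± 0.04). That value rests on its brightest probe set, and the other 3 Mcm7 probe sets changed by -0.19, -0.14 and -0.11 log2. The falls of Mcm2 to Mcm6 ran from -0.23 ± 0.04 for Mcm6 to -0.65 for Mcm2. Pcna was at 13.88, 13.97 and 13.92 log2 at 72 h, against 14.11, 14.22 and 14.08 at 12 h (-0.21 ± 0.05, adjusted p = 0.000377). Rrm1 was at 12.19, 12.18 and 12.15 at 72 h, against 11.96, 12.09 and 11.97 at 12 h (0.17 ± 0.05, adjusted p = 0.00766), but at -0.01 when arrays were centred or when all probe sets of a gene were averaged.

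Among the mitotic genes all 6 cyclin and kinase genes and all 5 checkpoint genes fell, while 4 of 7 kinesin and spindle genes and 5 of 6 centromere and chromosome genes did. Ttk was at 10.87, 10.99 and 10.91 log2 at 72 h, against 11.41, 11.49 and 11.43 at 12 h (-0.52 ± 0.06, adjusted p = 2.03e-08). Kif11 was at 10.03, 10.08 and 9.88 at 72 h, against 10.57, 10.53 and 10.43 at 12 h (-0.51 ± 0.08, adjusted p = 4.83e-06). Aurkb was at 9.96, 9.96 and 9.93 at 72 h, against 10.39, 10.45 and 10.40 at 12 h (-0.47 ± 0.06, adjusted p = 4.12e-07). The groups of these 3 genes did not overlap.

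Cdk1 was at 12.09, 12.13 and 11.98 log2 at 72 h, against 12.33, 12.44 and 12.22 at 12 h (-0.27 ± 0.06, adjusted p = 0.000238). Kif23 was at 10.47, 10.55 and 10.41 at 72 h, against 10.45, 10.55 and 10.31 at 12 h (0.04 ± 0.06, not called). The microtubule bundler Prc1 (-0.03 ± 0.06), which works with Kif23 at the central spindle, and Kif20a (-0.15 ± 0.07) were also not called. The Prc1 and Kif23 values rest on their brightest probe sets. The other Prc1 probe set changed by -0.23 (mean level 10.57 log2). Those of Kif23 changed by -0.24 (mean level 7.55) and by 0.04 (mean level 4.34). Mki67 was at 12.29, 12.25 and 12.29 at 72 h, against 12.06, 12.13 and 12.21 at 12 h (0.14 ± 0.05, adjusted p = 0.0202), with -0.03 when arrays were centred, and the call ended without 12 h array D or 72 h array A or C, at adjusted p of 0.0535 to 0.113.

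The fall in set 2 came in steps. At 24 h against 12 h arrays D to F, 6 S phase and 6 mitotic genes fell, against 14.8% of all genes, led by Ccna2 (-0.37 ± 0.05) and Ccne2 (-0.33 ± 0.08), and Mki67 rose (0.17 ± 0.05), against 16.0%, a call lost with arrays centred. In that step 4 of 23 fibroblast markers were higher and 0 lower, and 6 of 10 ES cell markers were lower, against the same shares of all genes. At 36 h against 24 h no member passed the limma test (2 higher and 3 lower at unadjusted p under 0.05), against 8.84% of all genes higher and 4.79% lower, and other settings called 0 to 3. At 48 h against 36 h, 8 mitotic genes and 0 S phase genes fell (limma, 3 S phase genes lower at unadjusted p under 0.05), against 14.5% of all genes, and 0 members rose (0 at unadjusted p under 0.05), against 7.59%. The 8 were Ccnb2, Cenpa, Nusap1, Cenpe, Bub1, Bub1b, Top2a and Tpx2, with changes of -0.18 to -0.30, and 4 of them, Bub1, Bub1b, Tpx2 and Top2a, lost the call with arrays centred. In this step 20 of 23 fibroblast markers rose, with a median change of 1.41 log2, and their part was not tested. Top2a is the topoisomerase that untangles sister chromosomes, and Cenpa the histone that marks centromeres.

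At 60 h against 48 h the S phase genes fell, with 9 of 14 lower, 7 of these being licensing and MCM genes, and 7 of 24 mitotic genes were lower, against 13.8% of all genes. Cdc6 was at 10.56, 10.62 and 10.82 log2 at 60 h, against 11.00, 11.14 and 10.92 at 48 h (-0.35 ± 0.07, adjusted p = 0.0013). Top2a (0.16 ± 0.05) and Cenpe (0.18 ± 0.06) rose, against 9.37% of all genes. Ccne1 was at 11.17, 11.35 and 11.95 at 60 h, against 11.76, 12.03 and 11.89 at 48 h (-0.41 ± 0.12, adjusted p = 0.014), and 60 h array C overlapped the 48 h arrays. In the step to 60 h 8 of 10 ES cell markers were lower (median -0.72), 6 of 23 fibroblast markers were lower and 3 higher (median -0.48), and 4 of 10 neuron markers were higher and 1 lower, and their part was not tested. At 72 h against 60 h only Cenpa was lower (-0.21 ± 0.06, adjusted p = 0.015), against 2.67% of all genes, and 0 members were higher (limma, 2 at unadjusted p under 0.05), against 8.54%. In this step 6 of 10 ES cell markers were higher and 1 lower (median 0.57). Of 10 neuron markers 7 were higher (median 0.68), and of 23 fibroblast markers 3 (median 0.50), with 0 lower in either list. The part of these markers was not tested.

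The 2 sets disagreed on the members at the same labelled times. At 12 h, arrays D to F against A to C, 6 S phase genes were higher and 2 lower while 15 mitotic genes were lower and 0 higher (limma, 1 at unadjusted p under 0.05), against 17.2% of all genes higher and 21.7% lower. At 24 h, 12 S phase genes were higher and 0 lower (0 at unadjusted p under 0.05) and 9 mitotic genes were lower with 1 higher, against 13.3% higher and 20.4% lower. The medians were 0.12 and 0.20 log2 for the S phase genes at 12 h and 24 h and -0.19 and -0.10 for the mitotic genes. With arrays centred no call turned round, and 9 and 13 S phase genes were higher at 12 h and 24 h and 10 and 6 mitotic genes lower.

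Ccne2 differed most. It was at 9.30, 9.27 and 9.24 log2 on 12 h arrays D to F, against 8.33, 8.31 and 8.09 on 12 h arrays A to C (1.03 ± 0.08, adjusted p = 7.55e-10), and at 8.86, 8.79 and 9.17 on 24 h arrays D to F, against 8.26, 8.27 and 8.26 on A to C (0.68 ± 0.08). These differences are larger than any change of Ccne2 called within a set. Ccne1 was 0.38 ± 0.12 higher in D to F at 12 h and 0.67 ± 0.12 at 24 h. Of the mitotic genes, Cenpf (-0.46 ± 0.06), a kinetochore protein, Ccnb2 (-0.44 ± 0.07) and Bub1 (-0.42 ± 0.07), a checkpoint kinase, were lowest in D to F at 12 h, and Kif23 (-0.48 ± 0.06) and Ccnb2 (-0.45 ± 0.07) at 24 h. Fibroblast markers were higher in D to F for 6 of 23 at 12 h and 4 at 24 h, against 17.2% and 13.3% of all genes. They were lower for 1 at each time, against 21.7% and 20.4%. Array set and letter cannot be told apart.

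**Figure D5:**
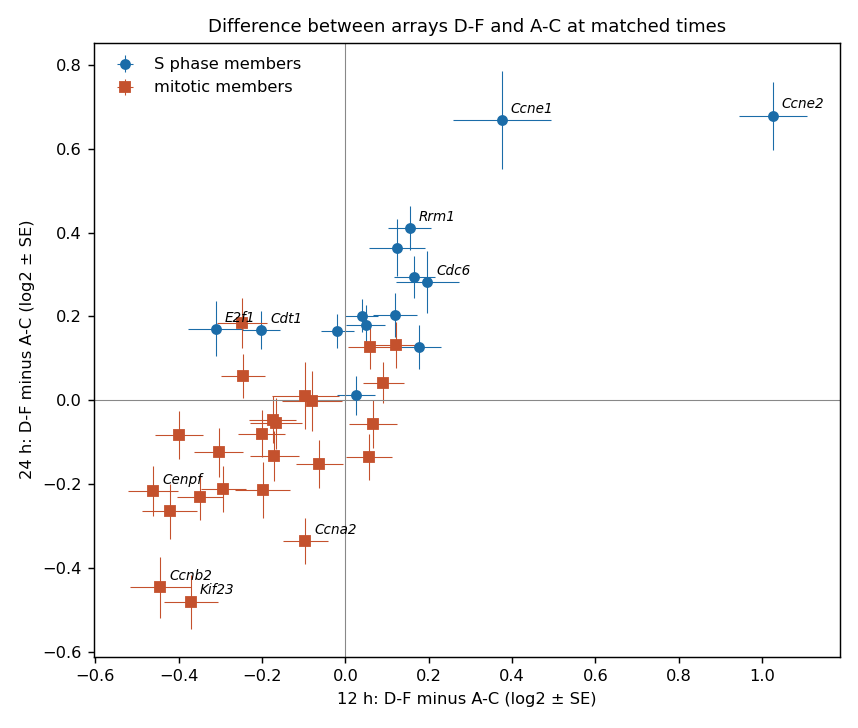
Difference between arrays D to F and A to C at 24 h (y axis) against the same at 12 h (x axis), log2 ± SE, 1 point per gene, S phase genes as blue circles and mitotic genes as orange squares. S phase genes lie mostly above 0 at both times, with Ccne2 at 1.03 and 0.68, and most mitotic genes lie below 0.

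Over the whole course the comparison crosses the array sets. At 72 h against 8 h, in a fit of the 8 times, 9 S phase genes were lower and Rrm1 higher, and 21 mitotic genes were lower and 0 higher (limma, 1 at unadjusted p under 0.05), against 34.6% of all genes lower and 23.7% higher. The medians were -0.22 log2 for the S phase genes and -0.36 for the mitotic genes, against -0.13 over all genes. With arrays centred the median of all genes was -0.34, 22.5% of the called genes were higher against 40.6% as deposited, and Rrm1 was not called. Of the markers, 22 of 23 fibroblast genes were higher and 0 lower (median 2.51), 9 of 10 ES cell genes were lower (median -1.10), and 5 of 10 neuron genes were higher and 1 lower, and their part was not tested. The S phase median lay 0.13 above the mitotic median in this fit, and the S phase minus mitotic difference was -0.12 when the array set was fitted as a block.

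The wider pathways were followed with lists of other genes. Of 43 measured other origin and fork genes, 19 were lower and 1 higher at 24 h arrays A to C against 8 h, and 39 lower and 0 higher at 72 h against 12 h arrays D to F, with medians of -0.12 and -0.35 log2. Over all genes 15.8% were lower and 23.5% higher in the first comparison and 34.5% lower and 26.2% higher in the second. With arrays centred, 38 of the 43 were lower and 0 higher at 24 h, and 41 lower and 0 higher at 72 h. Centring also lowered the median of all genes, to -0.20 and -0.27 log2, and 21.7% and 25.5% of called genes were higher. Orc2, of the origin recognition complex, was at 9.91 ± 0.07 log2 at 72 h, against 11.03 ± 0.07 at 12 h (SD, n = 3 each), a change of -1.12 ± 0.07. Ung, which removes uracil from DNA, changed by -0.89 ± 0.07 there and by -0.54 ± 0.07 at 24 h against 8 h. Tipin, of the fork protection complex, changed by -0.81 ± 0.05 at 72 h. Gins2, of the GINS helicase cofactor, was the 1 gene higher at 24 h (0.24 ± 0.06, a call lost with arrays centred).

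Of 48 other mitosis genes, 15 were lower and 7 higher at 24 h against 8 h, and 27 lower and 5 higher at 72 h against 12 h, with medians of -0.09 and -0.19 log2, against the same shares of all genes. With arrays centred, 37 were lower and 1 higher at 24 h, and 40 lower and 0 higher at 72 h. With it 21.7% and 25.5% of all called genes were higher, so these counts include the shift of all genes. Nek2, a centrosome kinase, changed by -0.36 ± 0.06 and -0.88 ± 0.06 in the 2 comparisons. Kif18a, a kinesin that aligns chromosomes, changed by -0.30 ± 0.07 and -0.88 ± 0.07. The phosphatase Cdc25b, which activates Cdk1, was higher in both (0.29 ± 0.07 and 0.19 ± 0.07, calls lost with arrays centred), while Cenpt (0.32 ± 0.05), of the inner kinetochore, was among the highest at 24 h.

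Of 18 regulators of both classes, 6 were lower and 4 higher at 24 h against 8 h, and 9 lower and 3 higher at 72 h against 12 h, against the same shares of all genes. With arrays centred, 11 were lower and 2 higher at 24 h, and 13 lower and 3 higher at 72 h. The same shift of all genes is included in these counts, with 21.7% and 25.5% of all called genes higher. Mybl2 (B-Myb), the activator that joins the MuvB core at mitotic promoters, was at 10.63 ± 0.14 log2 at 24 h, against 11.67 ± 0.04 at 8 h (-1.04 ± 0.09), and at 9.98 ± 0.17 at 72 h, against 11.44 ± 0.10 at 12 h (-1.46 ± 0.09). E2f2 (-0.75 ± 0.09) and E2f4 (-0.62 ± 0.14) were also lower at 24 h, and both calls were kept with arrays centred. Lin9, a subunit of the MuvB core, changed by -0.88 ± 0.09 at 72 h, and the repressor E2f8 by -0.88 ± 0.06. Rb1, the retinoblastoma protein that restrains E2F, was higher at 24 h (0.53 ± 0.09) and at 72 h (0.70 ± 0.09), as were its relative Rbl2 (0.24 ± 0.08 and 0.50 ± 0.08) and the repressor E2f6 (0.38 ± 0.05 and 0.48 ± 0.05). With arrays centred, the call of Rbl2 at 24 h was lost and the other 5 calls of these 3 genes were kept.

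Read against the promoters shown above, most genes with a match and most without one were lower at 72 h against 12 h arrays D to F. Of the 15 mitotic genes with a CHR, 12 were lower, 1 (Mki67) was higher and 2 (Kif23 and Prc1) were not called, with a median of -0.28 log2, and all 5 measured mitotic genes whose windows have no CHR were lower, with a median of -0.30. Of the 6 S phase genes with an E2F word, 5 were lower and Mcm7 was not called, with a median of -0.33, while those without one, also 6, had 4 lower, 1 higher and a median of -0.22. Over all genes 34.5% were lower and 26.2% higher. At 24 h arrays A to C against 8 h, 2 of the 15 mitotic genes with a CHR were higher, 1 lower and 12 not called. Of the 5 without one, 1 was higher and 4 not called. Among the S phase genes 5 of 6 with an E2F word and 4 of 6 without one were lower. Over all genes 15.8% were lower there and 23.5% higher. These groups are small and the differences between them were not tested. Cdk1, which holds both kinds of word, changed by -0.27, Ttk with 1 CHR by -0.52 and Ccnb2 with 2 by -0.31. Ccne1, the member with the largest fall, had no match to any of the words searched, and Ccne2 has no window in the table.

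Other probe sets of the same genes gave the same direction in most cases. Of 16 further probe sets of 11 S phase genes with a mean of at least 8 log2, 16 had the sign of the chosen one at 24 h arrays A to C against 8 h and 15 at 72 h against 12 h arrays D to F. In both comparisons 14 of the 16 were more negative than the chosen probe set, by a median difference of -0.07 and -0.16 log2. Of 10 further probe sets of mitotic genes, 8 and 9 had the same sign.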

How the data were processed

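The values analysed are log2 intensities of 45101 probe sets on 30 arrays, as the authors deposited them. Background correction and normalization are not given in the sources used here; limma 3.8.3 is named in the submitters' processing notes. Array medians lay between 6.34 and 6.39, and none of 48 pairs of arrays of a time held identical values. Leaving out 64 control probe sets and those with no symbol or several (932), 34945 probe sets gave 18193 genes with 1 probe set each, that with the highest mean.

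One limma 3.58.1 fit (R 4.3.3) held 10 groups, the 8 times with 12 h and 24 h split into A to C and D to F, and a second fit held 8 times for 72 h against 8 h. P-values were adjusted over all genes, two-sided, at 0.05. There was no filter on dim genes and no pseudocount. The fit was tested on simulated data.

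Values on every array are given for the 3 largest rises and falls per class in each main comparison and for Cdk1, Mcm2, Pcna and Mki67, and for other members where a step turns on them; of other lists up to 3 called genes a direction. The members, lists, comparisons and array sets were chosen with earlier results of these data known. Other comparisons' alternatives, the pooling of 24 h letters and the check of every comparison under other scalings were added after seeing the data. Promoters and their coordinates are RefSeq's (GRCm38.p6); the build behind the array values plays no part.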

Additional observations from a re-analysis of the deposited data

Results flagged for a closer look

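The change between 12 h and 24 h differed between arrays D to F and arrays A to C for 11 of 38 measured members, by a limma test of that difference (adjusted p over all genes under 0.05), against 19.1% of all genes either way. The difference, D to F minus A to C, was 0.48 log2 for E2f1, 0.43 for Bub1b, 0.37 for Cdt1, 0.32 for Ttk, 0.30 for Mki67, 0.26 for Rrm1, 0.25 for Cenpf, 0.19 for Mcm7 and 0.16 for Mcm6, and it was -0.24 for Ccna2 and -0.35 for Ccne2. The calls of Mcm6 and Cenpf were lost with arrays centred, and those of Ccne2 and Cenpf with arrays quantile normalised again. Array set and letter cannot be told apart.

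Of 76 groups of 6 arrays (38 genes at 12 h and at 24 h), 1 held an array far from the others. For Cenpa at 24 h, array B was at 11.97 log2, while the other 5 were at 11.84 to 11.88. Chance alone sets apart about 1 in 20 such groups.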

How the results depend on the processing

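S phase genes called lower outnumbered those called higher in every setting run, with 2 to 14 lower at 24 h arrays A to C against 8 h, 11 to 13 at 72 h against 12 h arrays D to F and 8 to 11 at 72 h against 8 h, while calls of higher members came and went. Of the counts and class differences under other settings, 279 stayed within 1.5 times the count or 1 SD and 54 did not. Of the values of named genes, 283 stayed called or not called and, where called, held their direction. Of the rest 26 lost a call, 8 gained one and 5 turned round. Where fewer genes or arrays do not set it by construction, the cause was not tested.

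With arrays centred on the median of all genes, 34 members were called at 24 h A to C against 8 h (16 as deposited), with 0 mitotic genes higher and 20 lower; 21 at 24 h against 12 h D to F (13), 3 at 36 h against 24 h (0), 4 at 48 h against 36 h (8) and 3 at 72 h against 60 h (1); 0 S phase and 0 mitotic genes were higher at 72 h against 12 h D to F and 0 S phase genes higher at 72 h against 8 h. Mki67 turned to -0.050 at 24 h against 8 h and -0.032 at 72 h against 12 h, where Rrm1 turned to -0.012. With quantile normalisation again, 11 members were called at 16 h against 12 h (7), 5 mitotic genes were lower at 24 h against 8 h (3), 2 members were called at 72 h against 60 h, 1 mitotic gene was higher at 72 h against 8 h (0), and the S phase minus mitotic median at 72 h against 12 h was -0.093 (-0.02).

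Without dim genes (under the 30th percentile), and with a trended robust variance prior, 6 mitotic genes were lower at 24 h against 8 h, 1 and 2 members were called at 36 h, 2 and 2 at 72 h against 60 h, and 1 mitotic gene was higher at 72 h against 8 h. With each gene's probe sets averaged, 4 members were called at 12 h against 8 h (10), 4 at 16 h, 1 at 36 h, 0 at 72 h against 60 h (limma; 3 lower and 2 higher at unadjusted p under 0.05 as deposited) and 7 for the difference between D to F and A to C in the change from 12 h to 24 h (11); 6 mitotic genes were lower at 24 h, and 0 S phase genes higher at 72 h against 12 h, where Rrm1 was -0.010. Without probe set types _s_at and _x_at, which left 37 members, 2 were called at 72 h against 60 h.

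With only the groups compared in the fit, 5 mitotic genes were lower at 24 h, 0 S phase and 0 mitotic genes higher at 72 h against 12 h, and 2 S phase and 1 mitotic gene higher at 72 h against 8 h. With 24 h letters pooled, added after seeing the data, 5 members were called, 2 S phase genes were lower, 0 mitotic genes higher, the class difference was -0.030 (-0.17) and Ccnb2 was -0.032. In the fit of 10 groups, also added, 2 S phase and 1 mitotic gene were higher at 72 h against 8 h. With the array set as a block, 0 S phase and 1 mitotic gene were higher there, and the class difference was -0.12 (0.13).

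Leaving out 1 array at a time gave 1 to 2 mitotic genes higher at 24 h against 8 h and 0 to 1 at 72 h against 12 h. Correlations of the deviations of arrays with the same letter ran from -0.04 to 0.00 between 24 h A to C and 8 h, were -0.06 between 72 h and 8 h, and ran from 0.07 to 0.14 between 24 h and 12 h D to F and from -0.17 to 0.29 between 72 h and 60 h. In no comparison were all 3 above 0.1, so the letters were not taken as pairs. With the letter as a replicate block, 5 mitotic genes were lower at 24 h against 8 h and 2 S phase genes higher at 72 h against 8 h; 72 h and 12 h D to F share no letter, so no paired fit was possible there. The values carry no detection calls, and 3 arrays a group limit the precision.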
